A study of Mus musculus with 17 samples.

Results

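CHD7 was mapped by ChIP-seq in 416B cells that carried an inducible Cbfb-Myh11 fusion (CM), and the 2 CM +Dox libraries were set against the 2 CM -Dox libraries of the same construct. These are 4 of the 16 peak lists analysed and 4 of the 17 labelled samples. 416B is a mouse myeloid progenitor line. CM +Dox cells carried the CM cDNA, fused through an F2A element to mCherry behind a tetracycline-responsive element, and received 1 µg/ml doxycycline for 24 hours. CM -Dox cells carried the same construct without doxycycline. Control +Dox and Control -Dox cells carried the plasmid without CM, with and without doxycycline, and all 4 conditions had 2 libraries per antibody. Every group shared a second plasmid with the tetracycline silencer, the transactivator and blasticidin resistance. The cultures were clonal, grown from sorted single mCherry-negative cells, so construct and clone cannot be told apart between CM and Control cells. Whether each construct was followed in 1 or several clones is not given in the sources used here. With and without doxycycline, the CM cells were therefore compared within their own construct. Where RUNX1 in CM +Dox cells was also set against all libraries without induced fusion, control cells were among them and constructs were mixed.

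CBFB is the partner that binds RUNX proteins and strengthens their hold on DNA, and RUNX1 is a transcription factor required for blood stem cells. The fusion arises through an inversion of chromosome 16 in acute myeloid leukaemia. In it, CBFB is joined to the tail of smooth muscle myosin, and the product interferes with normal RUNX1 function. CHD7 is an ATP-dependent chromatin remodeller of the chromodomain helicase family, best known because its mutation causes CHARGE syndrome. The comparison asked where CHD7 was called after induction of the fusion and not before, and where it was called before and not after.

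The peaks of the 4 CHD7 lists were merged where they overlapped by 1 bp or more, which gave 66570 sites. A library called a site if at least 1 of its peaks touched it. Sites called in both CM +Dox lists and in neither CM -Dox list are termed gained, the opposite sites are termed lost, and sites called in all 4 lists form the common set. There were 2189 gained sites (3.29% of all sites), 1466 lost sites (2.2%) and 8514 common sites (12.8%). These sets were made from the CHD7 calls themselves, so CHD7 ranks and call numbers are given as descriptions without a test. The CHD7 lists were cut at a p-value of 0.01, a deposited −log10 p score of 2, and their lowest scores lay just above it, at 2.01 in the CM lists. Read depth was not given in the sources used here and is unknown, so list length and score are not amounts of binding.

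The sequences of 6 gene starts that lay under gained or lost sites are shown first, because these sites stood at the strongest starts of their sets for which a 300-base promoter sequence was at hand. Each runs from 250 bases before to 50 bases after the start on the gene's own strand, 5′ to 3′, from RefSeq on GRCm38.p6, the assembly that mm10 denotes. Capitals mark TGTGGN, the core of the motif that RUNX proteins bind, or NCCACA, its complement read from the other strand. The gained starts were those of Psmd14, which encodes a deubiquitinase of the proteasome lid (chr2:61711444-61711743, plus strand), AW495222 (chr13:93719126-93719425, minus strand) and Spg20, which encodes spartin (chr3:55111916-55112215, plus strand). The lost starts were those of Nop2, a nucleolar RNA methyltransferase gene (chr6:125131633-125131932, plus strand), Slc49a4, a solute carrier gene (chr16:35769321-35769620, minus strand), and Frs2, which encodes an adaptor of fibroblast growth factor receptors (chr10:117148425-117148724, minus strand).
Psmd14, gained: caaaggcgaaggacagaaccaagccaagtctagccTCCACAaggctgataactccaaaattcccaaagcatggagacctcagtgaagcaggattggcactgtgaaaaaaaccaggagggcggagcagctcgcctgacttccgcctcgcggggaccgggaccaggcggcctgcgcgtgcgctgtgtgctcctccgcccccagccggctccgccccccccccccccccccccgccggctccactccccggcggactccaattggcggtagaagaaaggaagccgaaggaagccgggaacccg
AW495222, gained: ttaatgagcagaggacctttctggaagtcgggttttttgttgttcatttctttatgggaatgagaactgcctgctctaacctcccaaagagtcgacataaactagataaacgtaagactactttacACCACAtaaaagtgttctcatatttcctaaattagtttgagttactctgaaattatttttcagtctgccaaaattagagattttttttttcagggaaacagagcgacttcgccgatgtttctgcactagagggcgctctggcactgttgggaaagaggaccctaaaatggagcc
Spg20, gained: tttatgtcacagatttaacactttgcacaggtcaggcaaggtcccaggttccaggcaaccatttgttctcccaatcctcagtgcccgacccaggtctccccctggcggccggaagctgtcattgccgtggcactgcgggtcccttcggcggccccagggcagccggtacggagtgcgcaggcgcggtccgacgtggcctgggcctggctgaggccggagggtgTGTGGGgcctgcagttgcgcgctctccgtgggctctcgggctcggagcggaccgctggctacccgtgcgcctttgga
Nop2, lost: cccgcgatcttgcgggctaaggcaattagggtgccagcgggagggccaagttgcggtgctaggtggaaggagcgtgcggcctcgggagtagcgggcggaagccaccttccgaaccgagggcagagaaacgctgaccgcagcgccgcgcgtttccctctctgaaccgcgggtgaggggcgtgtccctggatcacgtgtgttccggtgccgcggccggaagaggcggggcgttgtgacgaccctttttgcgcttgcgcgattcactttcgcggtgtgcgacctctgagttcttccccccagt
Slc49a4, lost: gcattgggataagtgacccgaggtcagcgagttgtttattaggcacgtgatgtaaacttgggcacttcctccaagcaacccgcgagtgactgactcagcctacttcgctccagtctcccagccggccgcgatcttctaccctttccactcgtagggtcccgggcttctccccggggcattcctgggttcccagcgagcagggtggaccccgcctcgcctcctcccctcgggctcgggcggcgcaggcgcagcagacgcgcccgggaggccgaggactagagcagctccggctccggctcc
Frs2, lost: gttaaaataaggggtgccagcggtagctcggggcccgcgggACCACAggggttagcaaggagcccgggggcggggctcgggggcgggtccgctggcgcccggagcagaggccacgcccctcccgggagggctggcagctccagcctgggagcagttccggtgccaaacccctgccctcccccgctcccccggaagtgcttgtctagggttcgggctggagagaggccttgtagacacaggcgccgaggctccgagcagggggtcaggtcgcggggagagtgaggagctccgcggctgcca
Nop2 and Slc49a4 held no TGTGGN on either strand in this window, and the other 4 held 1 each. The sites covered only part of most windows, and the motif of Frs2 lay outside its CHD7 site. The site over the Nop2 start had RUNX1 peaks in both CM +Dox, both CM -Dox and all 4 control RUNX1 libraries. The site over the Frs2 start had them in both CM +Dox, both CM -Dox and 3 control RUNX1 libraries. The sites over the 3 gained starts and the Slc49a4 start had no RUNX1 peak in any of the 8 RUNX1 libraries. Of the 3 gained starts, only the Psmd14 site had no CHD7 peak in any control library.

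Over all promoters in the table, gained sites overlapped 157, lost sites 101 and common sites 2452. TGTGGN or its complement occurred in 51.0% of the promoters under gained sites (Wilson 95% interval 43.2% to 58.7%), in 63.4% under lost sites (53.6% to 72.1%) and in 51.0% under common sites, against 55.8% of all 32851 promoters of this length. The stricter TGTGGT, searched with its complement ACCACA and contained in the first motif, occurred in 18.5%, 19.8% and 13.4%, against 16.8% of all promoters. TGCGGT, searched with its complement ACCGCA and not overlapping TGTGGN, occurred in 8.28%, 10.9% and 11.1%, against 6.45%. The median GC content was 60.7% under gained sites, 56.3% under lost sites and 59.0% under common sites, against 52.7% over all promoters. For TGTGGN, the intervals of the gained and of the lost promoters both held the share of all promoters.

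The number of CHD7 peaks did not separate the conditions. CM +Dox replicates 1 and 2 held 33462 and 31688 peaks covering 12.7 and 14.1 Mb. CM -Dox replicates 1 and 2 held 17554 and 37698 peaks covering 7.98 and 16.7 Mb. The short list of CM -Dox replicate 1 stood apart, and the CM -Dox values lay on either side of both CM +Dox values. Means were 32575 ± 1254 and 27626 ± 14244 peaks (SD, n = 2 each), and the log2 ratio was 0.34 (two-sided exact permutation test over 6 choices, p = 1, with 0.333 the smallest possible). Within replicate 1 the CM +Dox list was 1.91 times as long, and within replicate 2 it was 0.841 times as long. Nothing in the labels says that replicates came from separate cultures, so the variation that p-values are set against here is that of these libraries and may be technical. Control +Dox libraries held 16323 and 32448 CHD7 peaks, against 17857 and 21486 in Control -Dox libraries.

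Sharing between replicates and between conditions depended on the lists set side by side. Of the peaks of CM +Dox replicate 1, 44.4% overlapped a peak of CM +Dox replicate 2, and 44.4% overlapped a peak of CM -Dox replicate 2. With the 17554 highest scores of every list, 45.1% and 44.0% of the CM +Dox peaks overlapped the partner list, against 57.2% and 55.4% of the CM -Dox peaks. Of the peaks of CM -Dox replicate 1, 77.9% overlapped its partner in the deposited lists, against 60.2% and 72.2% that overlapped the CM +Dox lists. Of the peaks of CM +Dox replicate 2 at equal length, 53.5% overlapped CM -Dox replicate 1 and 51.9% overlapped CM -Dox replicate 2. With equal lists the CM +Dox replicates thus shared fewer peaks with each other than CM +Dox replicate 2 shared with either CM -Dox list. In the deposited lists the shares of CM +Dox replicate 2 were 45.6% with its partner, and 39.5% and 57.1% with CM -Dox replicates 1 and 2.

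The balance of gained and lost sites turned round with list length. With 17554 peaks in each list there were 37462 sites, of which 1068 (2.85%) were gained, 1772 (4.73%) lost and 4892 (13.1%) common. The equal lists ended at a score of 3.81 in CM +Dox replicate 1 and CM -Dox replicate 2, where 3687 and 5550 peaks were tied, and at 3.62 in CM +Dox replicate 2. CM -Dox replicate 1 was kept whole, down to 2.01. Just below the limit in CM +Dox replicate 1 lay peaks of 3.79. Only 601 sites were gained both ways, 27.5% of the gained sites of the deposited lists and 56.3% of those at equal length. For lost sites the overlap was 785, 53.5% and 44.3%.

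Some call patterns that cross the conditions were as frequent as the gained and lost patterns. In the deposited lists 3742 sites were called in both replicate 2 libraries and in no replicate 1 library, more than were gained or lost. Another 1969 sites were called only in CM +Dox replicate 1 and CM -Dox replicate 2. At equal length, 1316 sites were called only in the replicate 2 libraries, 799 only in the replicate 1 libraries, 622 only in CM +Dox replicate 1 with CM -Dox replicate 2, and 1259 only in CM +Dox replicate 2 with CM -Dox replicate 1. The 1772 lost sites exceeded each of these 4 patterns at equal length, whereas the 1068 gained sites lay among them. In the deposited lists, leaving out CM +Dox replicate 2 gave 17218 gained sites and leaving out CM -Dox replicate 1 gave 16520 lost sites, the highest values when each list was left out.

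**Figure D1:**
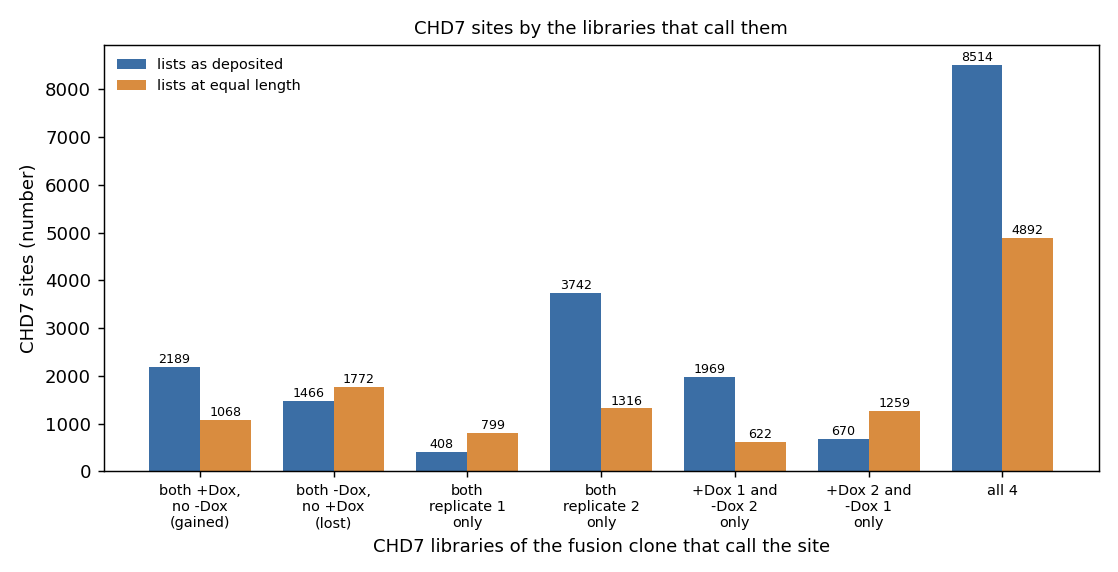
Number of CHD7 sites (vertical axis) by the libraries of the CM cells that call them (horizontal axis), for the deposited lists and for 17554 peaks per list. Gained sites outnumbered lost sites in the deposited lists (2189 and 1466) and were outnumbered at equal length (1068 and 1772), and the pattern of both replicate 2 libraries held 3742 and 1316 sites.

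In the deposited lists gained and lost sites ranked lower than common sites. The percentile rank of a score within its list runs up to 100 for the highest. Gained sites had a median mean rank of 46.0 and a median width of 464 bp, lost sites a rank of 45.8 and a width of 486.5 bp, and common sites a rank of 69.8 and a width of 916 bp. Only 20 gained sites (0.914%) and 24 lost sites (1.64%) had a mean rank of 90 or more, against 1447 common sites (17.0%). At equal length the median mean ranks were 70.4 for gained, 59.6 for lost and 82.2 for common sites, and 32.1%, 22.9% and 67.9% had a mean rank of 75 or more. Of the sites called in both CM +Dox lists, the share called in neither CM -Dox list was 34.3% at ranks under 25, 14.8% at ranks of 50 to 75 and 1.01% at ranks of 90 and above. Of the sites called in both CM -Dox lists, the share called in neither CM +Dox list was 25%, 10.7% and 1.29% in the same classes.

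**Figure D2:**
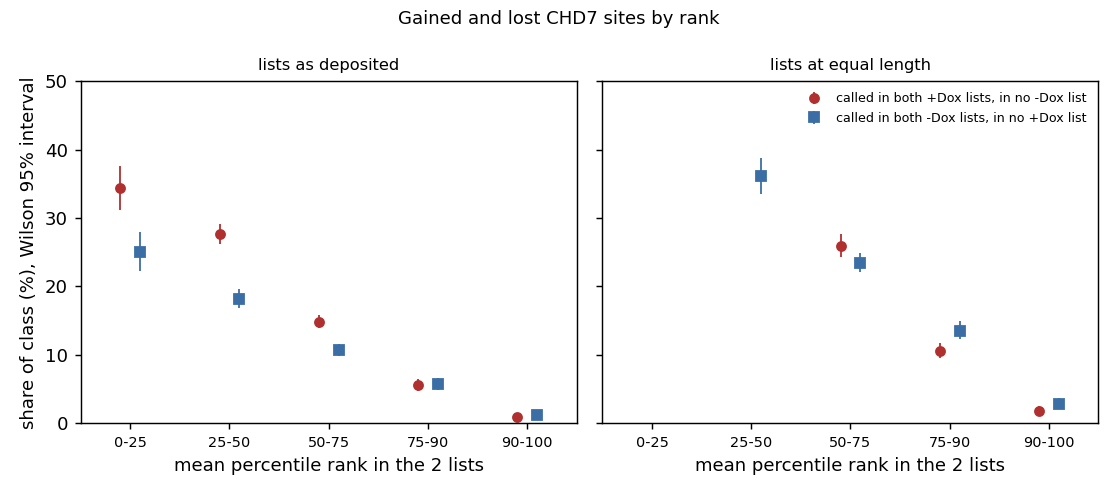
Share of the sites called in both lists of one condition that were called in neither list of the other (vertical axis, percent, bars are Wilson 95% intervals), by mean percentile rank class (horizontal axis), with classes under 20 sites not drawn. In both directions and for both list lengths the share falls with rank, to 1.01% and 1.29% at ranks of 90 and above in the deposited lists.

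The highest-ranked gained sites lay mostly away from gene ends. The highest was 54.4 kb from Clec14a, an endothelial C-type lectin gene (chromosome 12, 58323690 to 58324626), with ranks of 97.6 and 96.8 in the CM +Dox lists. It had a RUNX1 peak in both CM +Dox libraries and in none of the other 6, and a CHD7 peak in both Control -Dox and neither Control +Dox library. The next lay 8.36 kb from Epgn, which encodes an epidermal growth factor family ligand, with a mean rank of 95.5 and no control CHD7 or RUNX1 peak. Inside genes, gained sites lay in Syne1, which encodes the nuclear envelope protein nesprin-1 (chromosome 10, 5499840 to 5500704, mean rank 95.1), in Atg5, a gene of autophagosome formation (chromosome 10, 44322216 to 44322833, mean rank 94.97), and in Lpp, a LIM-domain adhesion gene (chromosome 16, 24669713 to 24670442, mean rank 93.9). The Atg5 and Lpp sites had a RUNX1 peak in 1 CM +Dox library and in no other RUNX1 library. Further sites lay in Hecw2, which encodes a ubiquitin ligase, in Myh10, a non-muscle myosin gene, in Slc45a4, near Tab2, an adaptor of the TAK1 kinase, near Rap2b, a small GTPase gene, near Tmem243, near Lpl, which encodes lipoprotein lipase, near Cystm1, and near Tnfsf4, which encodes the OX40 ligand. The strongest gained site at a gene end lay 99 bp from Trf, the transferrin gene (chromosome 9, 103230385 to 103230745), with a mean rank of 91.9. Of these 15 sites, 10 had no CHD7 peak in any control library and 8 had no RUNX1 peak in any library. Over all gained sites these shares were 54.0% and 84.4%.

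The highest-ranked lost sites had a different record in the control cells. The highest lay 13.4 kb from Olfm3, an olfactomedin family gene (chromosome 3, 114889627 to 114890635), with ranks of 94.6 and 97.8 in the CM -Dox lists, CHD7 peaks in all 4 control libraries and RUNX1 peaks in 1 CM +Dox and both CM -Dox libraries. A site 11.6 kb from Was, the actin regulator gene mutated in Wiskott-Aldrich syndrome (chromosome X, 8102080 to 8102757, mean rank 93.2), had RUNX1 peaks in neither CM +Dox library and in both CM -Dox and all 4 control libraries. The same RUNX1 record held for sites in Prkacb, a catalytic subunit gene of protein kinase A (mean rank 93.0), in Dock10, a guanine nucleotide exchange factor gene (mean rank 92.3), and 9.69 kb from Pde5a, a cyclic GMP phosphodiesterase gene (mean rank 92.8). Sites in Stpg2, in Rere, a transcriptional corepressor gene, in Rsbn1l, near Wfdc2 and in Itgb3, the integrin β3 gene of platelets (chromosome 11, 104611547 to 104612252, mean rank 92.4), had RUNX1 peaks in both CM +Dox as well as both CM -Dox libraries. The remaining sites lay in B4galnt2, Tex14 and Gsg1 and near Olfr521 and Sdhaf2. Of these 15 lost sites, 9 had CHD7 peaks in all 4 control libraries and 11 had RUNX1 peaks in both CM -Dox libraries, 4 of which had none in CM +Dox. Over all lost sites, 14.5% had CHD7 peaks in all 4 control libraries and 39.8% had RUNX1 peaks in both CM -Dox libraries. Of the latter, 53.2% had none in CM +Dox.

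At gene ends, the 8 highest gained sites lay at Trf, Trmt12, Adh7, an alcohol dehydrogenase gene, Psmd14, Dennd1b, Rap1a, a small GTPase gene, Spg20 and Dcaf6, with mean ranks of 82.7 to 91.9. The Trmt12 site (chromosome 15, 58875814 to 58876278) had ranks of 95.8 and 86.0, and the Rap1a site (chromosome 3, 105799951 to 105800832) had ranks of 92.9 and 77.5. Of these 8 sites, 6 had no RUNX1 peak in any library, against 59.7% of all gained sites at gene ends. The 8 highest lost sites at gene ends lay at Exph5, 4930503B20Rik, Gm21814, Nop2, Cox5a, a subunit gene of cytochrome c oxidase, Hspbap1, Trat1, an adaptor gene of T cells, and Frs2, with mean ranks of 80.3 to 91.5. The site at Hspbap1 is the one over the Slc49a4 start shown above, and the site at Nop2 (chromosome 6, 125131484 to 125132039) also lay within 5 kb of Chd4, which encodes the ATPase of the NuRD complex. Some of these genes also held sites of the opposite set, inside or within 5 kb. Rap1a had 3 lost sites, the best of mean rank 86.8, and Dennd1b and Dcaf6 had 1 lost site each. Trat1 and Frs2 had 1 gained site each, of mean ranks 43.5 and 24.2. Among the genes named for the highest sites above, Syne1 and Hecw2 also had lost sites, and Rere and Rsbn1l gained sites.

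Gained and lost sites shared their location and differed from the common sites. Within 1 kb of either end of a protein-coding gene lay 14.6% of gained sites (Wilson 95% interval 13.2% to 16.2%), 15.6% of lost sites (13.8% to 17.5%) and 29.9% of common sites (28.9% to 30.9%), against 14.8% of all merged sites. Inside genes and over 1 kb from an end lay 50.8% of gained, 48.0% of lost and 37.9% of common sites. Outside genes by over 100 kb lay 6.35%, 6.003% and 4.99%. The intervals of the gained and lost shares overlapped in every class, and they cover counting error only. At equal length the gene-end shares were 15.2%, 18.6% and 32.0%. Per library, 15.6% and 19.2% of the CM +Dox peaks lay at gene ends, against 23.4% and 18.1% of the CM -Dox peaks, a difference of -3.31 percentage points (two-sided exact permutation test, p = 0.667). The difference between Control +Dox and Control -Dox libraries was -3.35 percentage points.

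**Figure D3:**
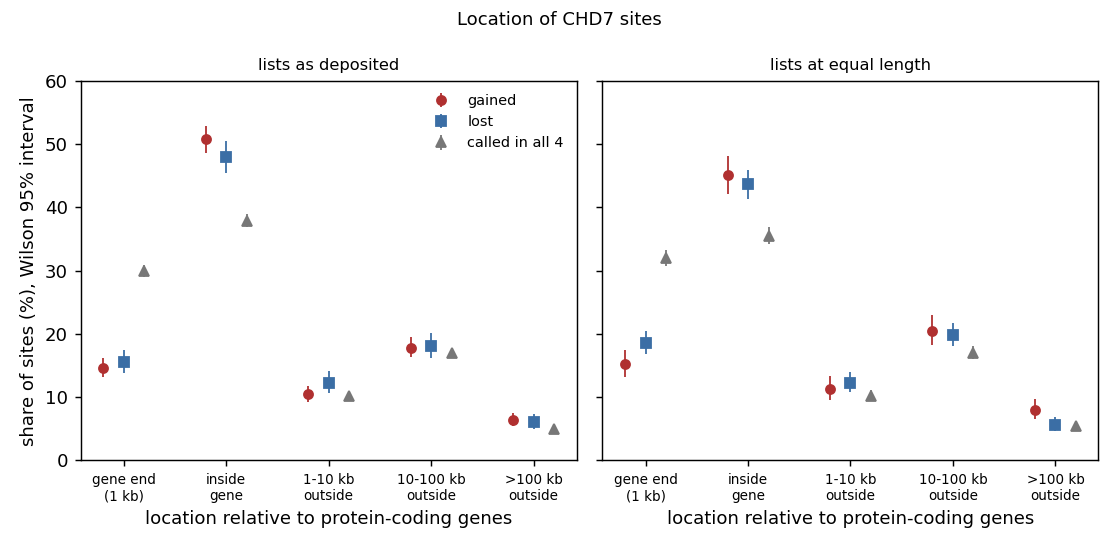
Share of gained, lost and common CHD7 sites (vertical axis, percent, bars are Wilson 95% intervals) by position relative to protein-coding genes (horizontal axis), for deposited lists on the left and equal lists on the right. Gene ends hold 14.6% of gained and 15.6% of lost sites and 29.9% of common sites in the deposited lists.

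The control cells, which lack the fusion and had no part in choosing the sites, called the 3 sets at different rates. Gained sites had a CHD7 peak in 15.4% and 24.0% of cases in the Control +Dox libraries and in 15.5% and 21.9% in the Control -Dox libraries. Lost sites had one in 35.5% and 45.4% in Control +Dox and in 33.5% and 44.1% in Control -Dox libraries. Common sites had one in 75.6% and 78.2% in Control +Dox and in 75.4% and 82.5% in Control -Dox libraries. Over all merged sites the shares were 20.6% and 26.8% in Control +Dox and 20.9% and 25.6% in Control -Dox libraries, above the gained and below the lost sites in each. The common sites were called most and the gained sites least often in every control library. Doxycycline alone moved the share at gained sites by 1.01 percentage points (Control +Dox minus Control -Dox, two-sided exact permutation test, p = 1) and at lost sites by 1.64 points (p = 0.667), both smaller than the spread between replicates.

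Counted over the 4 control libraries, 1181 gained sites (54.0%) had no control CHD7 peak, against 453 lost sites (30.9%) and 498 common sites (5.85%). Peaks in all 4 control libraries were present at 45 gained sites (2.06%), 212 lost sites (14.5%) and 4793 common sites (56.3%). At equal length, 39.2% of gained and 16.3% of lost sites had no control CHD7 peak. With all 4 CM lists, control cells thus called lost sites more often than gained sites, in the deposited lists and in the equal lists. The order turned round when either CM -Dox CHD7 list was left out. Mean Control +Dox and Control -Dox shares were then 25.5% and 24.97% (gained) and 12.8% and 11.8% (lost) without replicate 1. Without replicate 2 they were 31.7% and 31.1% (gained) and 27.7% and 26.6% (lost). The order stood without either CM +Dox list. Each time, the set chosen from the condition with a list left out had the lower shares.

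At the lost sites RUNX1 was also called less often after induction. At the 1466 lost sites, a RUNX1 peak was present at 14.7% and 18.4% in the CM +Dox libraries and at 41.1% and 45.7% in the CM -Dox libraries. Control +Dox libraries had 35.3% and 36.5%, and Control -Dox libraries 37.0% and 38.1%. The CM +Dox values lay below all 6 others. CM +Dox minus CM -Dox was -26.8 percentage points (16.6% ± 2.60 against 43.4% ± 3.23, SD, n = 2 each, two-sided exact permutation test with its lowest possible value, p = 0.333). Against all 6 libraries without induced fusion the difference was -22.4 points (p = 0.0357 in an exact permutation test over 28 choices, which is its lowest possible value, and 0.0446 after Benjamini-Hochberg adjustment over 5 tests). These 6 join the CM -Dox libraries to control libraries of another construct. Tests against them exchange libraries freely across conditions and constructs, so their p-values do not isolate induction. Control +Dox minus Control -Dox was -1.67 points, and the difference between the CM and Control effects was -25.2 points (p = 0.333 in an exact permutation test with 36 relabellings, which can go no lower than 0.0556). The size rested on which CHD7 lists chose the sites. CM +Dox minus CM -Dox was -7.83 points at the 16520 sites lost without CM -Dox CHD7 replicate 1, and -16.2 points at the 3465 lost without CM -Dox CHD7 replicate 2.

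In Control -Dox RUNX1 replicate 1 the names of the peaks bear a tag that reads +Dox, in conflict with the label, and neither condition holds the induced fusion. Without it the difference at lost sites was -22.8 points (p = 0.0476 in an exact permutation test over 21 choices, its lowest possible value). The RUNX1 lists also ended at different scores, 7.01 and 9.09 in CM +Dox and 9.09 and 9.07 in CM -Dox libraries, and held 8140 and 9710 peaks, against 13399 and 16163.

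At the 8514 common sites the RUNX1 share was 34.6% and 40.1% in CM +Dox libraries, against 46.2% and 53.0% in CM -Dox libraries, a difference of -12.2 points (two-sided exact permutation test with its lowest possible value, p = 0.333). Against all 6 libraries it was -9.21 points (exact permutation test, p = 0.0357, adjusted p = 0.0446). Every RUNX1 list was also cut to 8140 peaks, which kept CM +Dox replicate 1 whole and shortened the others. The difference between CM +Dox and CM -Dox then turned round to 4.64 points, whereas at lost sites it stayed negative, at -17.1 points. Relative to the common sites in the same library, the log2 odds of a RUNX1 peak at a lost site were -1.59 ± 0.03 in CM +Dox and -0.36 ± 0.09 in CM -Dox libraries (SD, n = 2 each). CM +Dox minus the mean of all 6 was -1.14 (exact permutation test, p = 0.0357, adjusted p = 0.0446), and -1.58 with RUNX1 lists of equal length. With each CHD7 list left out in turn it lay between -0.98 and -0.64 (p = 0.0357 each in the exact permutation test), the value nearest 0 being that without CM +Dox CHD7 replicate 2. These odds were added to the tests after the lists had been examined.

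At gained sites RUNX1 was called less often than over all 66570 merged sites in each of the 8 libraries. Gained sites had a RUNX1 peak in 7.22% and 9.78% in CM +Dox libraries, in 6.67% and 8.68% in CM -Dox libraries, in 7.54% and 6.44% in Control +Dox and in 7.77% and 7.54% in Control -Dox libraries. Over all merged sites the shares were 9.35% and 11.2% in CM +Dox, 14.4% and 17.1% in CM -Dox, and 13.2% to 14.5% in the control libraries. The ranges at gained sites overlapped, and the difference of 0.82 points between CM +Dox and CM -Dox did not exceed the spread between replicates (exact permutation test, p = 0.667). Against all 6 libraries it was 1.06 points (exact permutation test, p = 0.25). With RUNX1 lists of equal length the difference was 4.29 points (two-sided exact permutation test with its lowest possible value, p = 0.333), 7.61% ± 0.549 in CM +Dox and 3.31% ± 0.162 in CM -Dox libraries. Against all 6 libraries it was then 3.97 points, 7.61% in CM +Dox and 3.63% in the 6 (exact permutation test, p = 0.0357, the lowest value it can take). The cut kept CM +Dox replicate 1 whole and took the lowest scores from every other list. In the 6 deposited lists, RUNX1 peaks at gained sites had median ranks of only 35.9 to 45.4. The cut lowered their mean share from 7.44% to 3.63%, so this p-value does not isolate induction. Relative to common sites, the log2 odds at gained sites were -2.69 ± 0.10 in CM +Dox and -3.57 ± 0.02 in CM -Dox libraries, and CM +Dox exceeded the 6 others by 0.75 (exact permutation test, p = 0.0357, adjusted p = 0.0446). With each CHD7 list left out in turn this excess was 0.43 to 0.53 (p = 0.0357 each in the exact permutation test), and it was 0.43 without replicate 2 of either condition. The difference of shares changed sign without any 1 of the 4 CHD7 lists, to between -1.57 and -0.223 points.

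**Figure D4:**
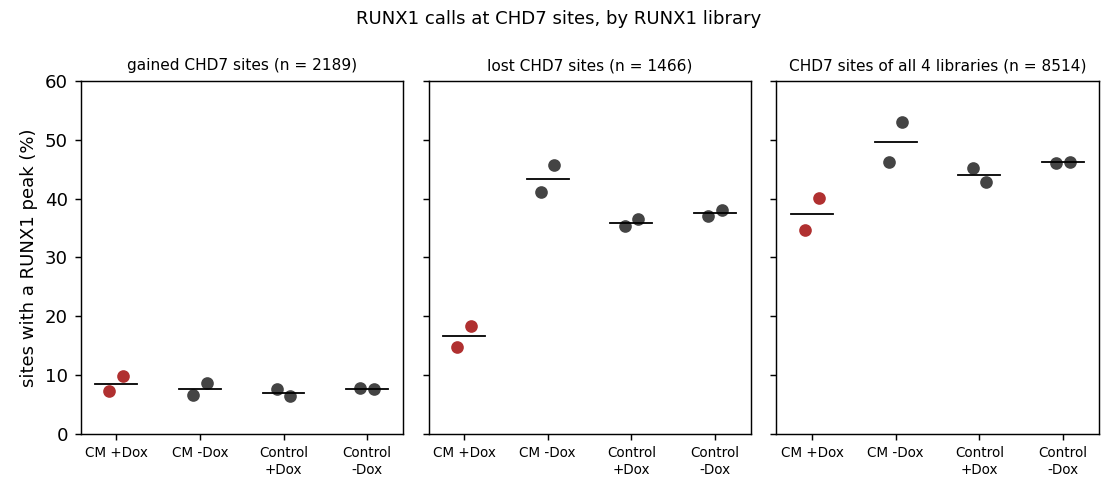
Share of gained, lost and common CHD7 sites with a RUNX1 peak (vertical axis, percent), 1 point per RUNX1 library and a bar at the mean of 2, by condition (horizontal axis). At lost sites the CM +Dox libraries sit at 14.7% and 18.4%, under the other 6, and at gained sites all 8 libraries lie between 6.44% and 9.78%.

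Site by site, 583 lost sites (39.8%) had a RUNX1 peak in both CM -Dox libraries. Of these, 310 (53.2%, Wilson 95% interval 49.1% to 57.2%) had no RUNX1 peak in either CM +Dox library, 89 had one in 1 library and 184 kept one in both. Among the 3744 common sites with RUNX1 in both CM -Dox libraries, 662 (17.7%, 16.5% to 18.9%) had none in CM +Dox. At lost sites away from gene ends the RUNX1 call was gone at 288 of 515 (55.9%, 51.6% to 60.2%), against 22 of 68 at gene ends (32.4%, 22.4% to 44.2%). At the 2441 common sites away from gene ends it was gone at 463 (18.97%). The intervals cover counting error over sites of the same libraries, and the difference between locations was not tested. No RUNX1 peak in any of the 8 libraries was present at 84.4% of gained, 49.7% of lost and 36.4% of common sites. These were 729 of the lost sites.

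Within the CM cells, RUNX1 calls restricted to +Dox were few. Sites were counted where RUNX1 was called in both CM +Dox and neither CM -Dox list, whatever the control calls. These were 31 of 2189 gained sites, 2 of 1466 lost sites and 68 of 8514 common sites. The same count over all merged sites was not made. The site near Clec14a was one of the 31.

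Near genes, 1478 of 21887 protein-coding genes (6.75%) had a gained site inside or within 5 kb, 1046 (4.78%) a lost site and 4962 (22.7%) a common site, and 204 had both a gained and a lost site. At equal length the shares were 3.49%, 5.64% and 15.5%. Genes with a site were long: the median length was 51.6 kb for genes with a gained site and 52.6 kb for genes with a lost site, against 17.2 kb for all. The main lists are therefore given with their median length, and no list was tested against all genes. A site counted for a listed gene can lie outside it, in or across the end of a neighbouring gene. The best gained sites of Map1lc3b, Atg12, Gp1ba and Fcer1g did so.

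Among stem and progenitor transcription factors (26 genes, median length 50.9 kb), 3 had a gained site, 3 a lost site and 15 a common site. These were 11.5%, 11.5% and 57.7%, against 6.75%, 4.78% and 22.7% of all genes. Gained sites lay at Lyl1 and Meis1, regulators of blood stem cells, and at Runx2, a RUNX family gene of bone, with mean ranks of 57.3, 48.5 and 52.5, and none of the 3 stayed gained at equal length. Lost sites lay at Runx1 itself, at Fli1, an ETS factor gene, and at Ikzf1, the Ikaros gene of lymphoid development. At equal length the counts were 4 gained (15.4%) and 5 lost (19.2%), against 3.49% and 5.64% of all genes. All 4 gained genes were new to the gained set, and Myb and Spi1, 2 regulators of myeloid progenitors, were added to the lost genes.

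The 3 lost sites at Runx1 lay close together, 2131 to 5206 bp from one end of the gene. The site at chromosome 16, 92820544 to 92820868, had ranks of 79.6 and 63.1 in the CM -Dox lists with CHD7 peaks in all 4 control libraries and no RUNX1 peak in any library. The site at 92821653 to 92822502 had ranks of 51.9 and 65.5, CHD7 peaks in all 4 control libraries, and RUNX1 peaks in both CM -Dox and all 4 control libraries and in neither CM +Dox library. The site at 92823418 to 92823943 had ranks of 16.4 and 81.8, CHD7 peaks in 2 control libraries and a RUNX1 peak in 1 CM -Dox library. All 3 stayed lost at equal length. A common site at 92714953 to 92716164 in the same gene had RUNX1 peaks in all 8 libraries. Chd7 had 2 common sites and no gained or lost site in the deposited lists, and 1 gained site at equal length.

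The records at Fli1 and Stat3 differed. The lost site in Fli1 (chromosome 9, 32509766 to 32510210, mean rank 70.6) had a CHD7 peak in 1 control library, and RUNX1 peaks in 1 CM +Dox library and in both CM -Dox and all 4 control libraries. The lost site in Stat3, a transcription factor of cytokine signalling (chromosome 11, 100891572 to 100891898, mean rank 78.0), had CHD7 peaks in 3 control libraries and RUNX1 peaks in neither CM +Dox and both CM -Dox libraries. At equal length Stat3 had 3 lost sites and 1 gained site.

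Cytokine and growth factor signalling genes (28 genes, median length 38.1 kb) were the list with the most gained genes by number, 8 (28.6%) gained and 4 (14.3%) lost. At equal length 5 (17.9%) were gained and 5 lost. Over all genes the shares were 6.75% and 4.78%, and 3.49% and 5.64% at equal length. Tgfbr2, a receptor gene for transforming growth factor β, had a gained site 87 bp from a gene end (chromosome 9, 116087782 to 116088240, mean rank 74.0), and Smad3, which encodes a mediator of that receptor, had one inside the gene (chromosome 9, 63677949 to 63678627, mean rank 66.1, no control CHD7 peak). Smad7, an inhibitor in the same pathway, Jak2, a cytokine receptor kinase gene, Dusp4, a phosphatase gene, and Il1r1, an interleukin 1 receptor gene, also had gained sites. Spred1, an inhibitor of Ras signalling, and Dusp1, another phosphatase gene, had both a gained and a lost site. The best gained site at Dusp1 had ranks of 0.009 and 74.5 in CM +Dox replicates 1 and 2, and the lost site a mean rank of 22.7. At equal length Dusp1 had neither. Lost sites lay further at Stat3 and at Ifnar1, an interferon receptor gene. Tgfbr2, Smad3, Jak2 and Dusp4 stayed gained at equal length.

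Of 20 autophagy and lysosome genes (median length 19.1 kb), 6 (30%) had a gained site and none a lost site, against 6.75% and 4.78% of all genes. Among them were Atg5, Atg12 and Atg16l1, the members of one conjugation complex, and Map1lc3b and Gabarapl1, ubiquitin-like proteins of the autophagosome. At equal length Atg5 and Map1lc3b stayed gained, and Atg7 had a lost site. The site counted for Map1lc3b (chromosome 8, 121602884 to 121603157, mean rank 72.1) lay outside that gene, within 5 kb, and inside a neighbouring gene. Among 19 immediate early genes 3 (15.8%) had a gained and none a lost site. The gained sites lay in Atf3, a stress-induced factor gene (chromosome 1, 191172489 to 191172837, mean rank 77.3), across an end of Klf6 (chromosome 13, 5869218 to 5870480, mean rank 66.9) and near Klf2, and the first 2 stayed gained at equal length.

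Chromatin remodeller genes (27 genes, median length 88.5 kb) had 2 (7.41%) gained and 6 (22.2%) lost genes, or 4 (14.8%) and 6 (22.2%) at equal length. Over all genes the shares were 6.75% and 4.78%, and 3.49% and 5.64% at equal length. Lost sites lay, among others, at Chd4 and Chd9, relatives of Chd7, at Arid2 and Pbrm1, subunits of a SWI/SNF complex, and at Tet2, a DNA demethylation enzyme gene. At equal length Tet2 had both a gained and a lost site. The Arid2 site (chromosome 15, 96377323 to 96377770, mean rank 68.5) had RUNX1 peaks in neither CM +Dox and in both CM -Dox and all 4 control libraries. The Chd4 and Chd9 sites had RUNX1 peaks in both CM +Dox and both CM -Dox libraries. Gained sites lay at Kdm6a, a histone demethylase gene, and at Chd2, whose gained site had a mean rank of 15.2 and was absent at equal length, where another site at Chd2 was lost.

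Myeloid differentiation genes (30 genes, median length 9.82 kb) had 2 (6.67%) gained and 3 (10%) lost genes, against 6.75% and 4.78% of all genes. At equal length the shares were 3.33% and 6.67%, against 3.49% and 5.64%. The gained share was thus near that of all genes. A gained site lay 74 bp from a gene end at Csf1r, which encodes the macrophage colony-stimulating factor receptor, with a mean rank of 73.7, no CHD7 peak in control libraries and no RUNX1 peak, and it stayed gained at equal length. At Csf2rb, the shared receptor chain for several myeloid cytokines, a gained site of mean rank 42.5 had RUNX1 peaks in both CM +Dox libraries and in none of the other 6. Lost sites lay in Mmp9, a neutrophil and macrophage protease gene (mean rank 82.4, CHD7 in all 4 control libraries and RUNX1 in all 8), at Lyz2, the lysozyme gene, and in Itgam, an integrin gene of myeloid cells. Of 13 mast cell and basophil genes, 3 (23.1%) had a gained and 2 (15.4%) a lost site. Those at Fcer1g, an Fc receptor subunit gene, and at Ms4a2 were gained, the one at Cpa3, the mast cell carboxypeptidase gene, was lost with RUNX1 peaks in neither CM +Dox and both CM -Dox libraries, and Il1rl1 had one of each. At equal length no gene of this list had a gained site, and Cpa3 and Il1rl1 had a lost one.

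The other lists had few members in either set. Over all genes the shares were 6.75% gained, 4.78% lost and 22.7% common, or 3.49%, 5.64% and 15.5% at equal length. Integrin and adhesion genes had 4 gained (Itgb1, Cd34, Itga4, Itga9) and 3 lost genes, Cd47 and Icam1 among them, of 24. The best lost sites of Cd47 and Icam1 had mean ranks of 32.9 and 8.7. At equal length this list had 1 gained and 1 lost gene, and neither Cd47 nor Icam1 had a lost site. Erythroid and megakaryocyte genes had Gp1ba gained and Itgb3 lost of 24, both kept at equal length. Cell cycle genes had Cdkn1b gained and Mcm3 and Ccna2 lost of 24, and no gained and 5 lost genes at equal length. Neural crest and CHD7 neural target genes had Sox4 and Snai2 gained and Sema4d lost of 22. Cytosolic ribosomal protein genes had 3 gained and 1 lost of 27, or 1 and 4 at equal length. Of the lists for cell types not expected in this line, lymphoid genes had 1 gained (Rag2) of 22 and liver genes 1 gained (Apob) of 14, and neither list had a lost gene. Common sites lay at 7 of the 30 myeloid, 5 of the lymphoid and none of the liver genes.

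Of the 13 genes with 5 or more gained or 5 or more lost sites, 4 lay on chromosome 19. Prkg1, a cyclic GMP-dependent protein kinase gene of 1200.8 kb on chromosome 19, had 23 gained, 6 lost and 29 common sites, and 21 of the gained sites had no control CHD7 peak. It held 226 and 203 CHD7 peaks in CM +Dox and 87 and 258 in CM -Dox libraries, against 13 and 59 in Control +Dox and 17 and 14 in Control -Dox libraries. RUNX1 peaks in Prkg1 numbered 4 and 5 in CM +Dox and 8 and 10 in CM -Dox, against 5 and 7 in Control +Dox and 7 and 8 in Control -Dox libraries. The high CHD7 count thus stood in all 4 libraries of the CM cells, with or without doxycycline. Sgms1, a sphingomyelin synthase gene of the same chromosome, had 10 lost, 1 gained and 19 common sites. Tle4, a corepressor gene, had 6 gained sites and Vps13a, a lipid transfer protein gene, had 5, also on chromosome 19. At equal length Prkg1 had 6 gained, 2 lost and 15 common sites and was the 1 gene with 5 or more gained sites. Tle4 then had no gained site and Vps13a 1, and Sgms1 had 5 lost sites. Elsewhere, Lpp had 6 gained sites in the deposited lists and 2 at equal length, Dock10 and Akap13, an anchoring protein gene of protein kinase A, had 5 lost sites each, and Adamtsl3 had 5 lost and no common sites.

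Chromosome 19 held 8.13% and 7.85% of the CHD7 peaks in CM +Dox and 8.29% and 7.94% in CM -Dox libraries, against 2.27% and 2.76% in Control +Dox and 2.31% and 2.86% in Control -Dox libraries, and holds 3.22% of the protein-coding genes. The ratio of CM to Control means was 3.16 for CHD7 peaks and 1.62 for RUNX1 peaks. Chromosome 14 went the other way, with a ratio of 0.362 for CHD7 and 0.592 for RUNX1 peaks. Without chromosome 19, gained sites had a CHD7 peak in a mean of 21.0% of cases in Control +Dox and 20.04% in Control -Dox libraries, and lost sites in 42.9% and 41.2%, so the order of lost and gained sites stood. Within the CM cells, 3.12% of the chromosome 19 sites were gained and 2.07% lost, close to the 3.29% and 2.2% of all sites. Leaving chromosome 19 out gave 2028 gained and 1359 lost sites.

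**Figure D5:**
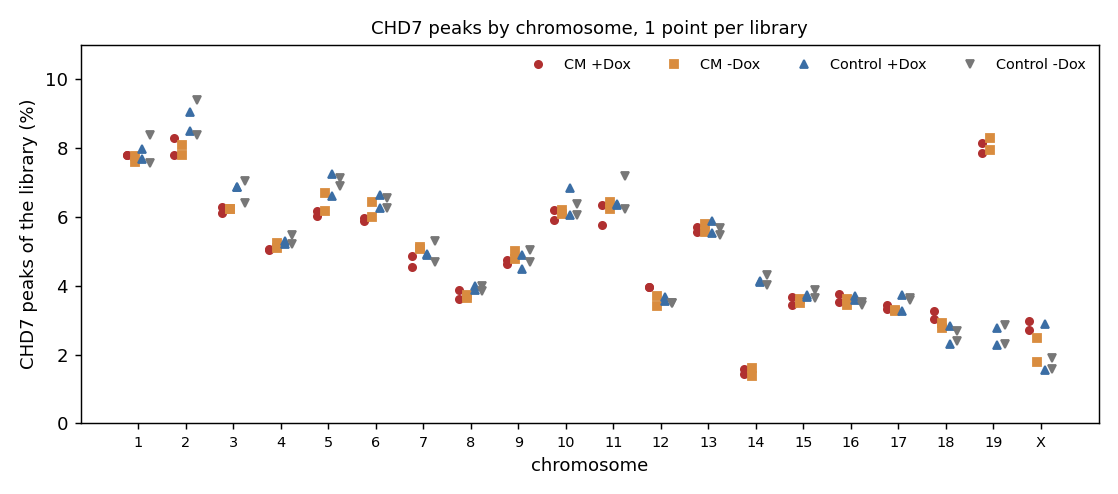
Share of each library's CHD7 peaks (vertical axis, percent) on each chromosome (horizontal axis), 1 point per library. The 4 libraries of CM cells lie at 7.85% to 8.29% on chromosome 19, where the 4 of Control cells lie at 2.27% to 2.86%, and the order is reversed on chromosome 14.

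The fusion's own genes served as a check of the construct labels. At Cbfb, 4 short common sites had mean ranks of 96.8 to 98.8, and at Myh11, 3 common sites had mean ranks of 94.9 to 97.4. None of the 7 had a CHD7 peak in a control library. These 7 sites were called in all 4 CM lists, with or without doxycycline, so they do not check the doxycycline labels. Another common site at Cbfb had CHD7 peaks in all 4 control libraries, and Myh11 also had a gained site of mean rank 24.2.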

How the data were processed

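ChIP-seq libraries for CHD7 and RUNX1 in 416B cells were analysed from 1 peak list each. Per the submitters' processing notes, Bowtie2 2.0.6 and MACS2 2.0.10 were used with mm10. For the background library, filters and depth the notes used here give nothing. The authors deposited a −log10 p-value as the score of each peak, and scores were compared only inside their own list. Unplaced and mitochondrial peaks were left out.

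Groups came from the labels. Peaks were merged and compared in Python 3.11.15 with numpy 2.4.6 and pandas 2.3.3, and the calling steps were tested on simulated data. Sites were compared by calls, without a p-value per site. Shares have Wilson 95% intervals that cover counting error only. Library values were compared with two-sided exact permutation tests in scipy 1.17.1. Log2 odds had 0.5 added to each count. Gene positions came from the RefSeq table of GRCm38.p6 (21887 protein-coding genes), and 320 of 321 listed genes matched. Named sites were the 15 of highest mean rank in each set and the 8 of highest rank at gene ends. Named genes were the members of 14 lists with gained or lost sites, genes with many sites, and Runx1, Chd7, Cbfb and Myh11. Promoters came from the RefSeq promoter table, which covers 17492 of the protein-coding genes. Alternatives were equal list length, stricter scores, other overlaps and windows, each library left out and chromosome 19 left out. The sites, lists and tests were chosen with earlier results of these data known. The IgG sample was not analysed here. Some members of the gene lists are counted but not reported by name here.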

Additional observations from a re-analysis of the deposited data

How the results depend on the processing

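Of 194 values recomputed for 16 results, 119 were classed as unchanged, 52 moved, 19 changed sign and 4 passed 0.05, all with control RUNX1 libraries added. The 52 that moved were counts and shares of sites. A tested difference was classed as unchanged if it kept its sign and its side of 0.05, whatever its size. The RUNX1 difference at lost sites was so classed at -7.83 points without CM -Dox CHD7 replicate 1, against -26.8 points with all lists. In the exact permutation test, no comparison of the 2 CM +Dox with the 2 CM -Dox libraries alone can pass 0.05. Read depth is unknown, scores are heavily tied, and the short CM -Dox replicate 1 list limits lost and common calls. At equal list length there were 1068 gained and 4892 common sites, 763 genes with a gained site, gene-end shares of 18.6% for lost and 32.0% for common sites, and the Control +Dox minus Control -Dox share at lost sites was -0.705 points. With ties at the limit all kept or all left out, gained sites numbered 1038 and 985. With scores at or above the pooled median of 3.81 there were 868 lost and 3888 common sites and 600 genes with a lost site, gene-end shares were 17.6% (gained) and 34.4% (common), the RUNX1 difference at gained sites was -0.445 points and the control difference at lost sites -0.864 points. With scores of 5 or more, a choice made after seeing the data, there were 931 gained, 367 lost and 1921 common sites, 683 and 273 genes with a gained and a lost site, gene-end shares of 17.2%, 17.98% and 46.0%, and differences of -0.591 points (RUNX1, gained) and -0.272 points (control, lost). Gene-end shares of gained, lost and common sites were 10.4%, 10.2% and 25.8% within 500 bp and 31.4%, 32.4% and 43.7% within 5 kb. Within 50 kb, 3418 genes had a gained and 2568 a lost site. Against 6 RUNX1 libraries the differences were -22.4 (lost) and -9.21 points (common), and against 5 they were -22.8 and -9.32. With equal RUNX1 lists the common-site difference was 4.64 points. The cause of these changes was not tested.

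With each library left out in turn, gained sites ranged from 2918 to 17218, lost sites from 2308 to 16520 and common sites from 9140 to 11333, since 3 lists and not 4 then set the rule. Each of the 4 lists moved a count of gained or lost sites by over 1.5 times. Without CM +Dox replicate 1 there were 12045 gained and 2308 lost sites, without CM +Dox replicate 2 17218 and 3879, without CM -Dox replicate 1 2918 and 16520, and without CM -Dox replicate 2 5052 and 3465. Gene-end shares ranged from 8.17% to 17.1% (gained), 11.8% to 19.4% (lost) and 27.0% to 28.9% (common), and genes from 1916 to 5909 (gained) and 1598 to 6407 (lost). The RUNX1 differences ranged from -29.1 to -7.83 (lost), -15.6 to -8.85 (common) and -1.57 to 2.10 points (gained). The control CHD7 differences ranged from -3.31 to 5.32 (gained) and -3.68 to 6.96 points (lost). The log2 ratio of peak number ranged from -0.21 to 0.89, that of covered length from -0.32 to 0.75, and the gene-end difference between lists from -5.93 to -0.695 points. With a replicate block the differences equal the unpaired ones, as -26.8 points for RUNX1 at lost sites, and the smallest possible p is 0.5. Same-numbered libraries were not shown to be paired: deviations from the group means correlated at 0.0995 over all sites.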
